A study of Mus musculus with 16 samples.

Results

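The DNA damage checkpoint genes examined here were the kinases *Atm*, *Atr*, *Chek1*, *Chek2* and *Wee1*, the *Atr* partner *Atrip*, and the mediators *Mdc1*, *Trp53bp1*, *Rif1* and *Topbp1*. They were chosen by gene symbol, and all 10 were found among the 25054 genes of the count table and passed the filter on low counts, which left 15413 genes. RNA depleted of ribosomal RNA was sequenced from 16 mouse osteosarcomas. All mice were OsxCreERT2+/- and carried p53fl/fl together with Rb1fl/fl, so every tumor was compared on a background in which *Trp53* and *Rb1* were targeted. The 8 tumors labeled KO came from 8 mice that also carried Arid1afl/fl, and the 8 labeled WT came from 4 mice without it (4 tumors of N42, 2 of N43 and 1 each of N215 and N25). The *Osterix*-driven Cre acts in bone-forming precursor cells. Tamoxifen had been injected at 400 ug/g when the mice were 1 month old, and the mice, of both sexes, were older than 6 months.

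The ATM and ATR kinases are the 2 apical kinases of this pathway. ATM is recruited to double-strand breaks, where MDC1 binds phosphorylated histone H2AX and 53BP1 (encoded by *Trp53bp1*) and its partner RIF1 hold back end resection. ATR is carried by ATRIP to single-stranded DNA coated with RPA, is activated by TOPBP1, and acts mainly through CHK1 (encoded by *Chek1*), while ATM acts mainly through CHK2 (encoded by *Chek2*). WEE1 places an inhibitory phosphate on the mitotic kinase CDK1, so that CHK1 and WEE1 restrain the same step of the cell cycle.

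Of the 10 genes, 5 lie on chromosome 9 of GRCm38. These are *Chek1* (36708482 to 36727065), *Atm* (53439149 to 53536740), *Atr* (95857597 to 95951781), *Topbp1* (103305215 to 103350428) and *Atrip* (109057933 to 109074124). *Rif1* (52072832 to 52122383) and *Trp53bp1* (121193281 to 121271407) lie on chromosome 2, *Chek2* (110839979 to 110874145) on chromosome 5, *Wee1* (110122046 to 110143286) on chromosome 7 and *Mdc1* (35841515 to 35859670) on chromosome 17. In no tumor did the median log2 CPM of chromosome 9 genes, relative to the WT mean, depart from that of the other chromosomes by more than 0.13. For chromosome 2 the largest departures were 0.19 in the N43 spine tumor and −0.16 in Ohio.

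RefSeq promoter sequences (GRCm38.p6) were matched for 8 of the 10 genes, all but *Rif1* and *Wee1*. The 250 bases before the RefSeq start are given for *Topbp1*, *Mdc1* and *Chek1*, whose levels followed each other closely across the mice. They are also given for *Chek2*, which shared an E2F-type motif with the first 2. These starts differ from those of the gene spans given above. The *Chek1* stretch lies wholly inside its gene span, those of *Topbp1* and *Chek2* end inside theirs, and that of *Mdc1* lies before its own. The sequences run 5′ to 3′ on the strand of the gene, and capitals mark 8-base E2F-type motifs (TTTCCCGC, TTTGGCGC, TTTCGCGC or TTTGCCGC) and the CCAAT box bound by NF-Y, on either strand.
*Topbp1* (chr9:103305077-103305326, plus strand): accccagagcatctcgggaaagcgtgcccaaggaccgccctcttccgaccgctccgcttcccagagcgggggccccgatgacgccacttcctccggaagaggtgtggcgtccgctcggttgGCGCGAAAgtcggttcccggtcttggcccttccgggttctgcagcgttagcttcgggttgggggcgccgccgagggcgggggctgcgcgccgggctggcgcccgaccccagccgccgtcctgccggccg
*Mdc1* (chr17:35841248-35841497, plus strand): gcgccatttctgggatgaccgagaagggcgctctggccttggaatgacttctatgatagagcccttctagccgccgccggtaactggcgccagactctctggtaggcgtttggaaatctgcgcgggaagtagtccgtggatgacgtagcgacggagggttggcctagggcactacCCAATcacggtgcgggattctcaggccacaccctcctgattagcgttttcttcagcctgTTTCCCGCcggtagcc
*Chek1* (chr9:36726659-36726908, minus strand): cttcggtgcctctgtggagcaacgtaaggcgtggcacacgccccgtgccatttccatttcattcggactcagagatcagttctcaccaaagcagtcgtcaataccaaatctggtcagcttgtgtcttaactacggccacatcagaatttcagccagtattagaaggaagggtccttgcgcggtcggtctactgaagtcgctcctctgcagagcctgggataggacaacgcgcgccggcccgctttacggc
*Chek2* (chr5:110839733-110839982, plus strand): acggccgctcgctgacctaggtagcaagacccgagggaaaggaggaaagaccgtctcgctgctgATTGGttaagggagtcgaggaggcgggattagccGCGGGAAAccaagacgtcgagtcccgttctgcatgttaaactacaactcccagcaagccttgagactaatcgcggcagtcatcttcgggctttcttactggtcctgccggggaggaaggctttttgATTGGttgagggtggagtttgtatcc

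Over the full 300-base windows, an E2F-type motif was found in 3 of the 8 promoters, those of *Topbp1*, *Mdc1* and *Chek2*, against 2.26% of the 32851 promoters in the reference. It began 129 bases before the start in *Topbp1*, 16 in *Mdc1* and 152 in *Chek2*. The *Chek1* window, which lies inside the gene span, held none of these letters, and bases before the end of that span were not searched. CCAAT was found in 4 of the 8 windows, those of *Atm*, *Atrip*, *Mdc1* and *Chek2*, against 37.4% of all promoters. The cell cycle homology region TTTGAA was in none of the 8 and in 17.9% of all promoters. These matches describe the letters of the windows and are not measurements of binding.

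The depth differed between the groups. Each KO library held from 1109487 to 15059640 counts and each WT library from 7806160 to 16962329. Massa and Grilka, the shallowest, held 142 and 341 counts on the 10 genes together, and a count of 3 stood for up to 6.69 CPM in KO but at most 0.340 CPM in WT. CPM are counts scaled to library size with edgeR's TMM normalization. *Arid1a*, counted over the whole gene, was not lower in the tumors labeled KO (107 to 270 CPM, median 179) than in WT (125 to 236 CPM, median 166; log2 fold change 0.16, edgeR adjusted p = 0.715), so the labels could not be checked from this count, and KO is used here for the tumors labeled so. Ribosomal and related RNA took 0.537% to 24.98% of the counts in KO and 0.109% to 2.01% in WT. The summed share of 10 osteoblast markers, led by *Col1a1*, was 0.036% to 2.65% in KO and 0.245% to 6.56% in WT, and none of these markers was at 0 in as many as 8 tumors. Skeletal muscle markers reached 10.3% in Oregon and 8.68% in Montana against at most 1.15% in WT, salivary gland markers 1.996% in Prince against at most 0.004%, and lung markers 3.84% in N25, which is labeled as lung, and 0.482% in Massa, against at most 0.002% in the other WT tumors. Zelda held 0.300% lymphoid, 0.241% erythroid and 0.072% liver markers, against at most 0.071%, 0.057% and 0.0002% in WT. Macrophage markers, led by *Mrc1*, were at a median of 0.022% in KO (0.010% to 0.112%) and 0.230% in WT (0.058% to 0.267%). The part of these tissues in the levels of the 10 genes was not tested. In bulk tissue, fewer cells of a type and less RNA per cell cannot be told apart.

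None of the 10 genes passed the threshold between the groups. In edgeR's quasi-likelihood test over all genes, 4.01% of genes had an adjusted p under 0.05 and 0 of the 10 did. At an unadjusted p under 0.05 there were 2 of the 10, *Atrip* and *Trp53bp1*, against 23.0% of all genes. DESeq2 placed 1 of the 10, *Atrip*, past the threshold as higher in KO, where it placed 7.76% of all genes, and limma-voom, in which mouse was a random effect, placed 0 of the 10 and 0.11% of all genes. The KO and WT values did not overlap for 0.415% of all genes and for 0 of the 10. By sign alone, 8 of the 10 edgeR estimates were above 0 and 2 below, where 55.9% of all genes tested were above 0. The signs depend on the measure. The difference of mean log2 CPM over tumors was below 0 for *Atr* (−0.59), *Wee1* (−0.31), *Topbp1* (−0.30) and *Rif1* (−0.026). Over mouse means these 4 were also below 0, as was *Atm* (−0.072). The share of all genes by those measures was not counted. The median edgeR estimate of the 10 was 0.37 against 0.10 for all genes tested.

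**Figure D1:**
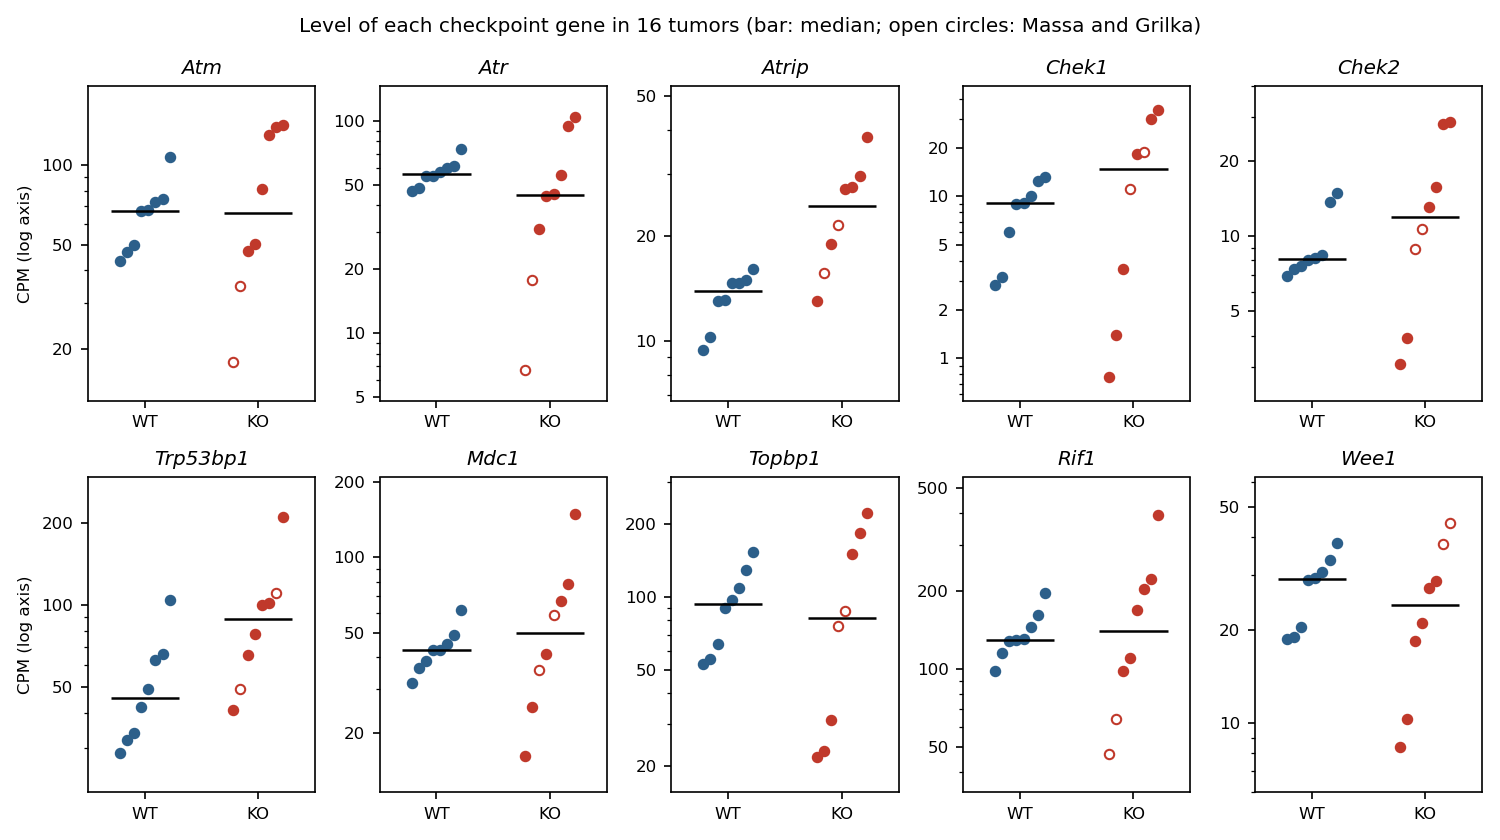
Level of the 10 checkpoint genes in CPM on a log axis, 1 point per tumor, in 8 WT (blue) and 8 KO (red) tumors, with the median of each group as a bar and the shallow libraries Massa and Grilka as open circles. The KO values spread above and below the WT values for most genes, and for *Atrip* 6 of the 8 KO tumors lie above the highest WT tumor.

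*Atrip*, whose product binds ATR and brings it to exposed single-stranded DNA, came closest to a group difference. Its KO values ran from 13.02 CPM in Zelda through a median of 24.3 to 38.2 CPM in Medusa, and its WT values from 9.45 CPM in the N43 spine tumor through a median of 13.9 to 16.1 CPM in the right pelvis tumor of N42. Of the 8 KO tumors, 6 exceeded every WT tumor, and only Massa and Zelda fell within the WT range. Mean levels were 23.9 ± 8.27 CPM in KO and 13.3 ± 2.34 CPM in WT (SD, n = 8 each, edgeR log2 fold change 0.86, standard error 0.24, adjusted p = 0.0555). The estimate stayed above 0 in all 31 alternative fits, between 0.72 and 1.04, and was past the threshold in 8 of them. It was past it without Massa (adjusted p = 0.0363), without Zelda (0.0220), without the N215 tumor (0.0463) and with the proliferation score as a covariate (0.0374), all in edgeR. It was not past it when mice were the unit, with an edgeR adjusted p of 0.541 on counts summed per mouse, nor without the 4 tumors of N42 (0.492) or with the ribosomal RNA share as a covariate (0.589), where the estimates were 0.95, 1.04 and 0.75. Over the 12 mice, the mean log2 CPM was 0.84 higher in KO (two-sided exact permutation test, p = 0.0202, not adjusted for the 10 genes examined). *Trex1* lies within the annotated end of *Atrip* on the same strand (chr9:109057933-109059734) and was not analyzed here, so reads from the shared stretch cannot be told apart. The neighbor *Tma7*, which ends 443 bases from *Atrip*, had an estimate of 0.79 (edgeR adjusted p = 0.183), and *Shisa5*, 155 bases from its other end, one of −0.61 (edgeR adjusted p = 0.336).

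*Atr*, the kinase that ATRIP accompanies, did not move with it. Its KO values ran from 6.71 CPM in Grilka through a median of 44.7 to 104 CPM in Zelda, and the WT values were tightly grouped from 46.9 to 73.3 CPM with a median of 56.4. In KO, 5 tumors lay below every WT tumor and 2, Ohio and Zelda, above them all. The lowest value rests on 5 counts in Grilka, whose 95% Poisson interval (counting error only) was 2.18 to 15.7 CPM, and the next on 8 counts in Massa. The edgeR log2 fold change was −0.18 (standard error 0.38, adjusted p = 0.827), and it became 0.10 without Massa and Grilka. Leaving out 1 tumor gave −0.42, without Zelda, to −0.022, without Grilka. The standard deviation of log2 CPM was 1.29 in KO and 0.20 in WT, a ratio of 6.31 and the widest among the 10 genes. *Gm16794*, an antisense gene overlapping *Atr* by 9737 bases, held 441 counts in all tumors against 11318 for *Atr*, and without knowledge of the strand their shared reads cannot be separated.

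*Atm*, the kinase of the double-strand break response, ran from 17.8 CPM in Massa through a median of 65.7 to 143 CPM in Zelda in KO, and from 43.5 CPM through a median of 67.2 to 108 CPM in WT. The medians were close, with 3 KO tumors (Zelda, Ohio and Medusa) above every WT tumor and 2 (Massa and Grilka) below. The edgeR log2 fold change was 0.29 (standard error 0.37, adjusted p = 0.675), with 0.12 without Zelda, 0.13 without Ohio, 0.16 without Medusa and 0.48 without N215. *Npat*, which starts 306 bases from *Atm* in the opposite direction, had an estimate of −0.43 (standard error 0.39, edgeR adjusted p = 0.539).

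Among the mediators, *Trp53bp1* showed the larger shift. Its KO values ran from 41.3 CPM in Montana through a median of 88.9 to 209 CPM in Medusa, and its WT values from 28.8 CPM in the N43 pelvis tumor through a median of 45.8 to 104 CPM in N215. The groups overlapped, with 7 of the 8 KO tumors above the WT median and 2 above the WT maximum. Mean levels were 94.4 ± 52.7 CPM in KO and 52.5 ± 25.05 CPM in WT (SD, n = 8 each, edgeR log2 fold change 0.85, standard error 0.34, adjusted p = 0.151). Without the N215 tumor, the highest of the WT tumors, the estimate was 1.10 (edgeR adjusted p = 0.0582), and without Medusa it was 0.57. It was 0.64 on counts summed per mouse (edgeR adjusted p = 0.727) and 0.29 with the ribosomal RNA share as a covariate (0.883). Over mouse means, the two-sided exact permutation test gave an unadjusted p of 0.232. *Tubgcp4* overlaps the end of *Trp53bp1* by 5490 bases on the other strand and had an estimate of −0.28 (edgeR adjusted p = 0.656).

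*Rif1*, which acts with 53BP1, was the most abundant of the 10 by count. It ran from 46.8 CPM in Massa through a median of 140 to 390 CPM in Medusa in KO and from 97.8 CPM through a median of 130 to 197 CPM in WT, and the KO values enclosed the WT range. Its edgeR log2 fold change was 0.25 (standard error 0.35, adjusted p = 0.726), and −0.080 without Medusa. *Mdc1*, the reader of phosphorylated H2AX, ran from 16.2 CPM in Oregon through a median of 50.2 to 148 CPM in Medusa in KO and from 31.5 CPM through a median of 42.7 to 61.5 CPM in WT. Its estimate was 0.45 (standard error 0.35, edgeR adjusted p = 0.477) and 0.08 without Medusa. In a fit added after the data were seen, without Massa, Grilka, Montana, Oregon and Prince, which left 3 KO tumors, *Mdc1* was the 1 gene of the 10 past the threshold in edgeR (adjusted p = 0.0397).

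*Topbp1*, the activator of ATR, ran from 21.8 CPM in Oregon through a median of 81.6 to 223 CPM in Medusa in KO and from 52.7 CPM through a median of 93.3 to 153 CPM in WT. Ohio and Medusa exceeded every WT tumor, while Oregon, Montana and Prince lay below them all. The edgeR log2 fold change was 0.09 (standard error 0.46, adjusted p = 0.931). Its sign turned without Medusa (−0.20), Ohio (−0.10) or Zelda (−0.026) and in limma-voom (−0.19).

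Of the effector kinases, *Chek1* was the most variable, with a standard deviation of log2 CPM of 1.99 in KO and 0.83 in WT. Its KO values ran from 0.765 CPM in Montana through a median of 14.7 to 34.3 CPM in Ohio, and its WT values from 2.84 CPM in N25 through a median of 9.06 to 13.3 CPM in N215. Montana held 3 counts (95% Poisson interval 0.158 to 2.24 CPM) and Oregon 5 counts (0.454 to 3.26 CPM), in libraries of 4991363 and 5743976 counts, which were not the shallowest. These libraries held the high muscle marker shares, whose part in the low values was not tested. By contrast 4 KO tumors, Ohio, Medusa, Grilka and Zelda, lay above the WT maximum. Mean levels were 14.8 ± 12.9 CPM in KO and 8.24 ± 3.91 CPM in WT (SD, n = 8 each, edgeR log2 fold change 0.85, standard error 0.62, adjusted p = 0.435). The estimate was the same size as those of *Atrip* and *Trp53bp1*, but its standard error was larger, and it was 0.52 without Ohio.

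*Chek2* ran from 3.06 CPM in Montana through a median of 11.95 to 28.6 CPM in Prince in KO and from 6.91 CPM through a median of 8.11 to 14.97 CPM in WT. Prince and Zelda, with 28.6 and 28.4 CPM, stood far above the WT tumors, and Medusa lay just above the WT maximum. Its edgeR log2 fold change was 0.61 (standard error 0.42, adjusted p = 0.399), beside 0.45 (adjusted p = 0.386) for *Hscb*, which starts 201 bases from it in the opposite direction. The *Chek2* estimate was 0.38 without Prince and also 0.38 without Zelda. *Wee1* ran from 8.38 CPM in Prince through a median of 24.1 to 44.3 CPM in Grilka in KO and from 18.7 CPM through a median of 29.2 to 38.2 CPM in WT. Its estimate was −0.19 (standard error 0.32, edgeR adjusted p = 0.770), with 3 KO tumors below and 1 above the WT range, and it became 0.17 without Montana, Oregon and Prince. *Wee1* lies within the antisense gene *1600010M07Rik*, which held 107 counts in all tumors against 4689 for *Wee1*.

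**Figure D2:**
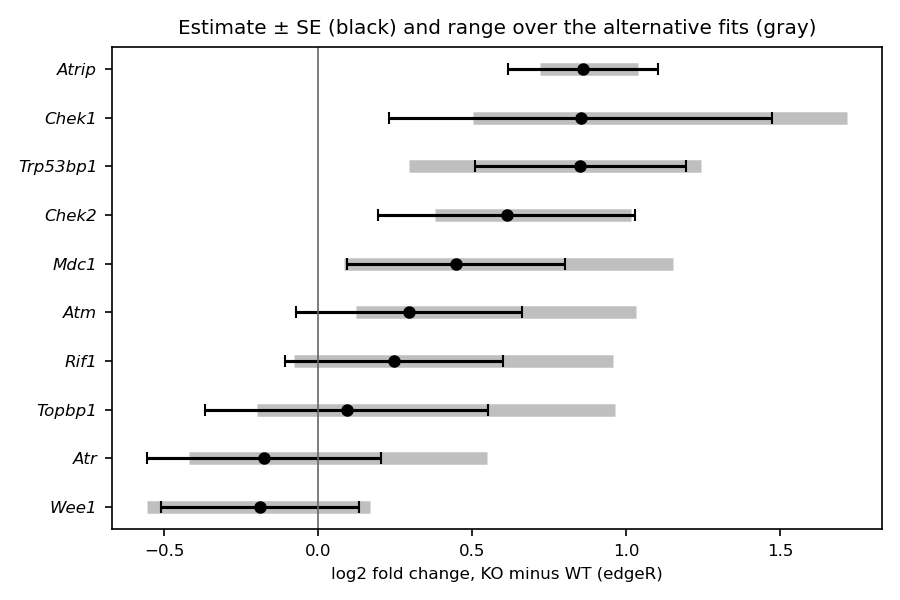
Log2 fold change of each checkpoint gene, KO minus WT, from edgeR on 16 tumors (black point, with its standard error as a bar) and the range of the estimate over 31 alternative fits (gray). *Atrip* has the shortest standard error (0.24) and *Chek1* the longest (0.62), and the gray ranges of *Atr*, *Topbp1*, *Rif1* and *Wee1* cross 0.

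The spread of these genes, like that of most of the transcriptome, was wider in KO. The standard deviation of log2 CPM was larger in KO than in WT for all 10 genes, and for 90.4% of all genes tested. The ratio of the KO to the WT standard deviation ran from 1.17 for *Trp53bp1* to 6.31 for *Atr*, with 3.44 for *Mdc1* and 3.29 for *Rif1*, beside a median of 2.01 over all genes. The 8 WT tumors include 4 of a single mouse, and each KO tumor is from its own mouse. Among the 4 tumors of N42, *Chek1* varied 1.38-fold against 4.67-fold over the 8 WT tumors, *Mdc1* 1.15-fold against 1.95-fold and *Atrip* 1.24-fold against 1.70-fold. *Chek2* was an exception, at 1.98-fold within N42 and 2.17-fold over all WT tumors.

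Within tumors, the genes fell into a pattern by library. Medusa had 8 of the 10 genes above the WT maximum, Ohio 7 and Zelda 6, and none of these tumors had a gene below the WT minimum. Montana and Oregon each had 6 genes below the WT minimum and 1 above the maximum, which was *Atrip* in both. The median of the 10 genes, relative to the WT mean on the log2 scale, was 1.44 in Medusa, 0.97 in Ohio and 0.71 in Zelda, and −0.82 in Oregon and −0.48 in Montana. The median of all genes in these 5 tumors lay between −0.12 and −0.01. The share of all genes outside the WT range was not counted for single tumors. Above the WT mean were 9 of the 10 genes in Medusa (47.4% of all genes), 10 in Ohio (49.4%) and 8 in Zelda (47.9%). Montana had 1 (47.1%) and Oregon 2 (46.5%). Grilka was mixed, with 4 genes above the WT maximum and 3 below the minimum. Montana and Oregon were the tumors with the high muscle marker shares given above, and their osteoblast shares were 0.127% and 0.113%, against 1.04% to 2.65% in Medusa, Ohio, Zelda and Grilka. The osteoblast share was lower still in Prince (0.036%) and Massa (0.088%). Above the WT mean there were 5 of the 10 genes in Prince (50.5% of all genes) and 4 in Massa (36.8%). The part of tissue content in these levels was not tested. In WT, N215 had all 10 genes above the WT mean (49.7% of all genes) and the N43 pelvis tumor 1 (48.8%). Their osteoblast shares were 0.356% and 4.93%.

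**Figure D3:**
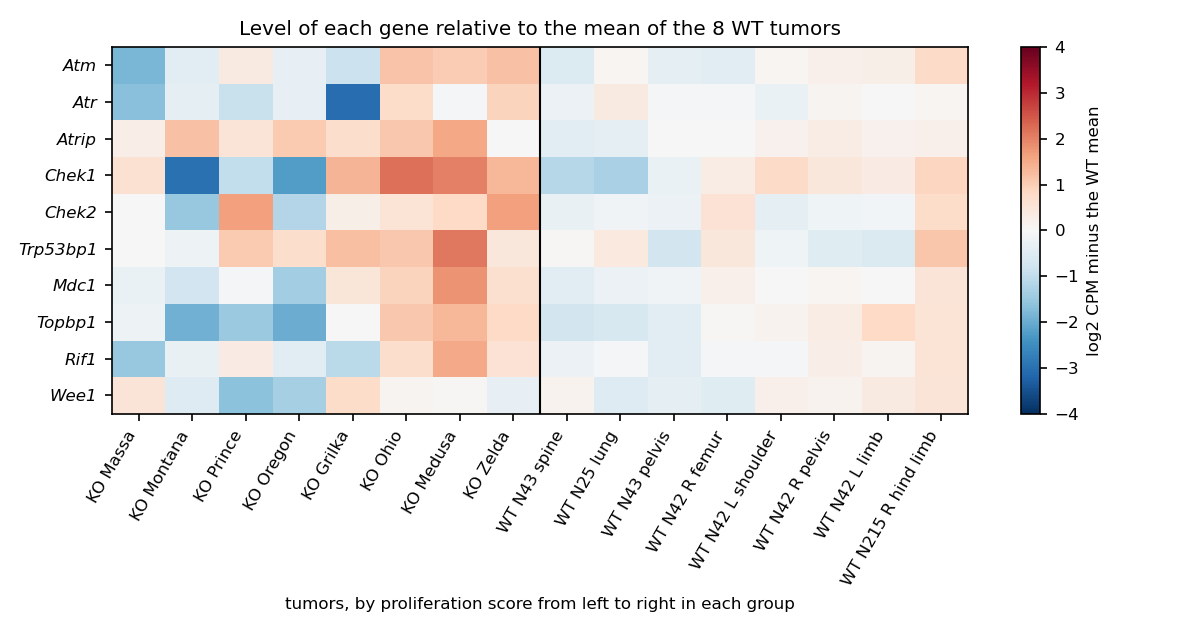
Log2 CPM of each checkpoint gene minus its mean in the 8 WT tumors (color), by tumor, with KO tumors on the left and WT tumors on the right, each ordered by proliferation score. *Topbp1* and *Chek1* are blue in Montana, Prince and Oregon and red in Ohio, Medusa and Zelda. *Atrip* is red in Montana, Prince, Oregon, Ohio and Medusa and at about the WT mean in Zelda.

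Per kilobase of the longest coding transcript, *Topbp1* and *Rif1* were the highest in WT, at 17.9 ± 6.88 and 16.2 ± 3.56 CPM per kb (SD, n = 8). The levels then ran on from *Wee1* (8.01 ± 2.13) through *Atr* (7.06 ± 1.03), *Atm* (6.74 ± 2.11), *Mdc1* (5.92 ± 1.24), *Trp53bp1* (5.45 ± 2.60), *Atrip* (5.16 ± 0.910) and *Chek2* (4.13 ± 1.36) to *Chek1* (2.17 ± 1.03 CPM per kb). Only the step from *Rif1* to *Wee1* exceeded the overlap of neighboring means and standard deviations. In KO the same measure was 9.81 ± 5.48 for *Trp53bp1* and 9.31 ± 3.22 for *Atrip*, behind *Rif1* (19.2 ± 13.1) and *Topbp1* (19.1 ± 14.9). *Atr* and *Atrip*, whose products act as a pair, were by this measure at 7.06 and 5.16 CPM per kb in WT and at 6.16 and 9.31 in KO. These levels and their order rest on the length used. The merged exons of *Atr* span 23629 bases, against 8102 in its longest coding transcript. They span 7152 against 2572 bases for *Atrip*, 11226 against 5224 for *Topbp1*, and 3419 by either measure for *Wee1*. Levels per base of merged exons were not computed.

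Ratios between genes of the same library do not depend on library scaling, and 5 were compared, with the p-values of two-sided exact permutation tests adjusted over the 5. The log2 ratio of *Atrip* to *Atr* was −0.73 ± 1.32 in KO and −2.10 ± 0.34 in WT (SD, n = 8 each), a difference of 1.37 (exact permutation test, adjusted p = 0.0303). It lay above the highest WT tumor in 6 of the 8 KO tumors, below the lowest in Zelda, and within the WT range in Ohio. Grilka had the highest ratio (1.65), from 16 counts of *Atrip* and 5 of *Atr*. The difference was 0.88 without Massa and Grilka (exact permutation test, adjusted p = 0.167), and 1.497 over mouse means (adjusted p = 0.212). Leaving out 1 tumor at a time gave differences from 1.03, without Grilka, to 1.69, without Zelda, and 3 of these 16 tests were past the threshold.

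The log2 ratio of *Rif1* to *Trp53bp1* was 0.66 ± 0.80 in KO and 1.49 ± 0.54 in WT (SD, n = 8 each), a difference of −0.83 (exact permutation test, adjusted p = 0.0672). In 5 KO tumors it was below the lowest WT tumor. The difference was −0.96 without Zelda (adjusted p = 0.0268 in the same exact test) and −0.64 over mouse means (adjusted p = 0.387). The *Atm* to *Atr* ratio differed by 0.61 (exact permutation test, adjusted p = 0.116), with Grilka (2.35), Prince (1.39) and Medusa (1.23) above the WT maximum of 0.84. The ratios of *Chek1* to *Chek2* and of *Wee1* to *Chek1* differed by −0.11 and −0.47 (exact permutation tests, adjusted p = 0.861 and 0.558). The *Wee1* to *Chek1* ratio was highest in Montana, at 4.31, and lowest in Ohio and Medusa, at −0.26 and −0.14, while in WT it ran from 1.06 to 3.12.

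**Figure D4:**
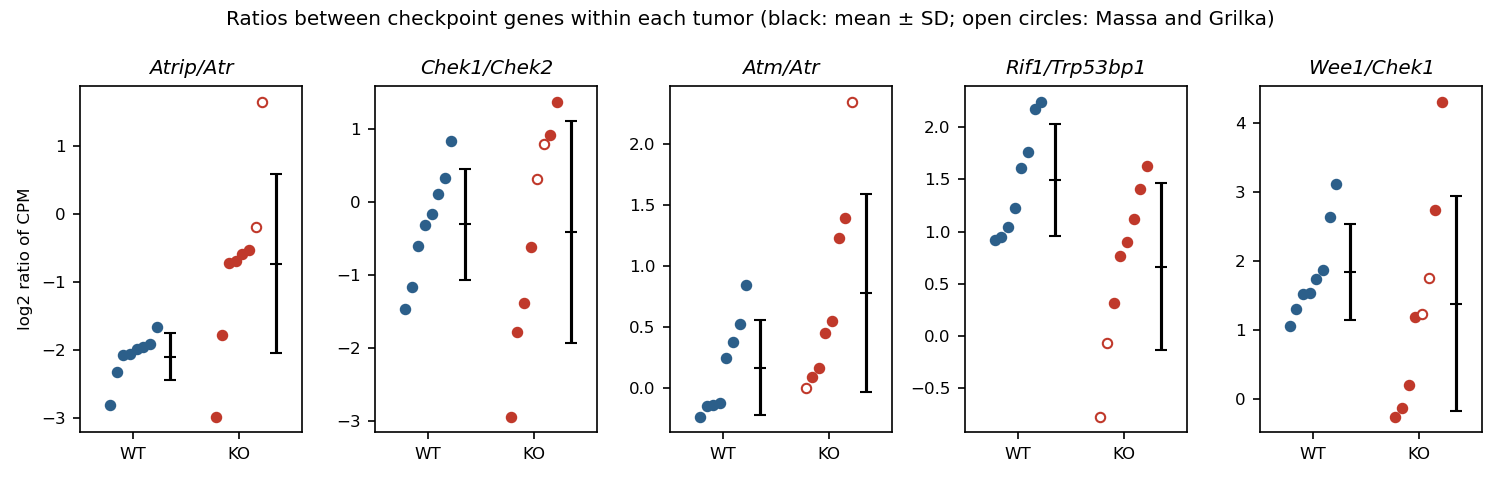
Log2 ratio of CPM of 5 pairs of checkpoint genes, 1 point per tumor, in 8 WT (blue) and 8 KO (red) tumors, with the mean and SD of each group in black and Massa and Grilka as open circles. The *Atrip* to *Atr* ratio is above −1.67, the WT maximum, in 6 KO tumors, and for the *Chek1* ratios the KO tumors fall on both sides of the WT tumors.

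The levels were then set against a proliferation score, the mean centered log2 CPM of 20 cell division genes that include none of the 10. Over mice the scores formed separate sets, from −3.31 to −2.07 in the 4 KO mice Massa, Montana, Prince and Oregon and from −0.37 to 2.09 in the other 8, which were Medusa, Ohio, Grilka, Zelda and the 4 WT mice. Correlations are therefore given within the 8, a choice made after the scores were seen, with exact permutation p-values adjusted over the 10 genes. Over all 12 mice, as planned, *Topbp1*, *Mdc1* and *Chek1* were also past the threshold, but so was *Atm* (r = 0.691, permutation test, adjusted p = 0.0332), and *Chek2* was not (r = 0.484, adjusted p = 0.161). Within the 8, Pearson's r was 0.904 for *Topbp1* (exact permutation test, adjusted p = 0.0156), 0.893 for *Chek1* (0.0169), 0.876 for *Chek2* (0.0156) and 0.809 for *Mdc1* (0.0244). Spearman's rho was 0.833, 0.667, 1.00 and 0.881 for these 4 genes, with adjusted exact p-values of 0.0513, 0.119, 0.000496 and 0.0362. Without N43 and N25, the mice farthest from the median score, r over the remaining 6 was 0.670, 0.548, 0.893 and 0.612 (exact permutation test, p = 0.154, 0.243, 0.0167 and 0.201, unadjusted). Before any adjustment, *Chek2* alone of the 4 was under 0.05 in so few mice. In the 8 KO tumors, which hold neither of these mice but span both sets of scores, r was 0.831 for *Topbp1*, 0.781 for *Chek1*, 0.497 for *Chek2* and 0.801 for *Mdc1* (exact permutation test, p = 0.0327, 0.0358, 0.204 and 0.0197, unadjusted). The other 6 genes were not past the threshold, with r of 0.696 for *Atm*, 0.673 for *Trp53bp1*, 0.619 for *Atrip*, 0.575 for *Rif1*, 0.365 for *Wee1* and 0.094 for *Atr*. Over all other tested genes the median r in these 8 mice was −0.046 and the 90th percentile 0.556. Over all 16 tumors the score differed by −0.95 between the groups, KO minus WT (exact permutation test over tumors, p = 0.298). Within the 8 mice it leaned the other way, from 1.198 in Grilka to 2.09 in Zelda among the KO mice. The WT mice there were at −0.37 (N43), −0.19 (N25), 0.75 (N42) and 1.77 (N215), and only N215 reached the KO range. Score and group were thus not separate within the 8 mice, and the part of group in the correlations there was not tested.

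In the 4 mice with low scores, the genes parted. *Topbp1* was at 23.2, 31.0 and 21.8 CPM in Montana, Prince and Oregon, below the WT minimum of 52.7, and at 75.8 CPM in Massa. *Chek2*, at 3.06 and 3.92 CPM in Montana and Oregon, was at 28.6 CPM in Prince. *Trp53bp1*, at 99.5 CPM, and *Atm*, at 81.1 CPM, were also above their WT medians in Prince, where *Wee1* was lowest. *Atrip* was at 29.6 CPM in Montana and 27.1 CPM in Oregon, above its WT range, in the same libraries that held 3 and 5 counts of *Chek1*.

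**Figure D5:**
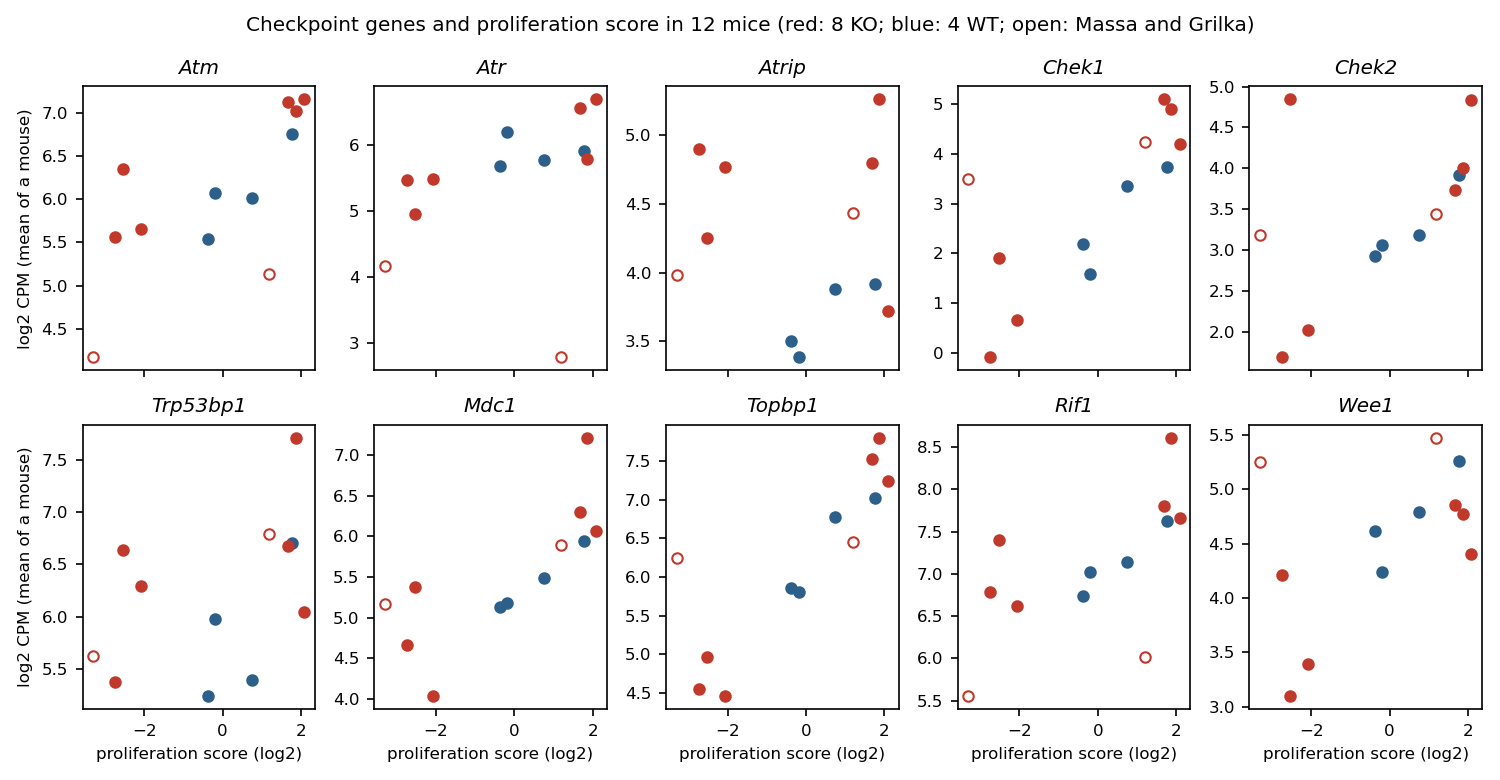
Log2 CPM of each checkpoint gene (mean of the tumors of a mouse) against the proliferation score of the mouse, in 8 KO mice (red) and 4 WT mice (blue), with Massa and Grilka as open circles. *Topbp1*, *Chek1*, *Mdc1* and *Chek2* increase with the score among the 8 mice from −0.37 to 2.09, and *Atrip* in KO mice lies above the 4 WT mice except in Zelda, by little in Massa.

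Likeness of the levels among the 10 genes, given as Pearson's r over the 12 mice and without a test, was highest for *Atm* with *Rif1* (0.945) and *Chek1* with *Topbp1* (0.944), followed by *Mdc1* with *Topbp1* (0.897) and *Chek1* with *Mdc1* (0.872). *Atr* and *Atrip* had an r of −0.13. *Wee1* had its lowest value with *Atr* (−0.26), which became 0.58 without Massa and Grilka. These points share libraries and depth. By the same measure over all tested genes, the nearest to *Chek1* were *Ssrp1* (0.963), *Spdl1* (0.947) and *Topbp1*, and the nearest to *Topbp1* were *Sgo1* (0.974), *Diaph3* (0.962) and *Smc4* (0.961). *Sgo1* protects centromeric cohesion and *Smc4* is a condensin subunit. *Mdc1* was nearest to *Sin3a* (0.964), *Hjurp* (0.921) and *Nkrf* (0.915), and *Wee1* to *Tubb5* (0.919), *Hdgfl3* (0.899) and *Rftn2* (0.893). *Atm* was nearest to *Cenpo* (0.971), *Smchd1* (0.964) and *Emsy* (0.964), *Rif1* to *Chd8* (0.963), *Rnf213* (0.949) and *Zfp407* (0.947), and *Atr* to *Gm37082* (0.967), *Zfp62* (0.965) and *Zfp868* (0.948). *Trp53bp1* was nearest to *Fdps* (0.905), *Ddx55* (0.904) and *Zfp653* (0.894), and *Chek2* to *Rbm27* (0.885), *Bbx* (0.877) and *Jpt2* (0.871). The 3 genes nearest to *Atrip* were *Clasrp* (0.916), *Top1mt* (0.911) and *Eif3g* (0.910), and *Clasrp* and *Top1mt* were themselves past the threshold as higher in KO, by 1.11 and 1.63 on the log2 scale (edgeR adjusted p = 0.0260 and 0.0153). Of all genes, 4.01% were past it in either direction. Genes picked for likeness to *Atrip* over KO and WT mice together tend to share its group difference, so these calls are no separate support for it.

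The surrounding pathway was read from 7 lists of 50 other checkpoint genes, all of which were tested. In edgeR, 0 of the 50 were past the threshold (4.01% of all genes were). At an unadjusted p under 0.05 there were 6 of the 50, against 23.0% of all genes, and the median log2 fold change was 0.22 against 0.10 for all genes. By sign, 33 of the 50 were higher in KO, against 55.9% of all genes, and the counts by sign below stand beside that share. DESeq2 called 6 of the 50, against 12.5% of all genes, and limma-voom 0, against 0.11%. Among 12 sensors of breaks and stalled forks, of which *Rpa1*, a subunit of the protein that coats single-stranded DNA, was the most abundant (61.4 CPM in KO and 51.2 in WT, log2 fold change 0.27, edgeR adjusted p = 0.525), 6 were higher and 6 lower by sign. Among 12 chromatin mediators 10 were higher by sign, and *Rnf168*, the ubiquitin ligase that marks chromatin for 53BP1, was the most abundant, with 88.6 CPM in KO and 42.04 CPM in WT (log2 fold change 1.06, standard error 0.35, edgeR adjusted p = 0.0881). Its KO values ran from 32.2 to 213 CPM and overlapped the WT values of 31.5 to 71.2 CPM.

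Of the 5 effectors of 53BP1, 3 were higher and 2 lower by sign, led in abundance by *Dynll1* (log2 fold change 0.22, edgeR adjusted p = 0.659). The 3 adaptors between ATR and CHK1 were all higher by sign, with a median of 1.02, and the most abundant, *Timeless*, had 36.2 CPM in KO and 17.9 CPM in WT (log2 fold change 1.02, standard error 0.61, edgeR adjusted p = 0.329). Among 8 cell cycle targets 6 were lower by sign, and the most abundant, the CDK inhibitor *Cdkn1a*, was at −0.59 (edgeR adjusted p = 0.515). Of 4 genes of the p53 arm 3 were higher by sign, with the most abundant, *Mdm4*, at 0.07 (edgeR adjusted p = 0.930). The 6 related kinases and assembly factors were all above 0, by as little as 0.04 for the most abundant, *Smg1* (edgeR adjusted p = 0.955). With the proliferation score as a covariate 6 of the 50 were past the threshold in edgeR, where 6.2% of all genes were. These were *Clspn* and *Timeless*, adaptors of CHK1 activation, *Rnf168*, *Uimc1* and *Nbn*, which were higher in KO, and *Cdk1*, which was lower.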

How the data were processed

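RNA of 16 tumors was sequenced with 50-cycle reads. Per the submitters' notes, reads were aligned with Novoalign 2.08.01 to mm10, and the authors, who used DESeq2 1.26.0, deposited raw counts per gene. Up to 50 alignments per read were allowed, and the strand is not given in the sources used here. The 10 genes and all lists were chosen with earlier results of these data known.

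Counts were fitted over all genes with edgeR 4.0.16 (R 4.3.3; TMM, filterByExpr with minimum count 10 and minimum total 15, glmQLFit and glmQLFTest, no covariate), with Benjamini-Hochberg adjustment and a threshold of 0.05. Log2 CPM used a prior count of 2. DESeq2 1.42.0 (20078 genes with an adjusted p) and limma 3.58.1 were alternatives, with other scaling, filters, covariates, mice as units and left-out tumors. All tests were two-sided. Except where mice are named as the unit or as a random effect, tumors of a mouse were treated as separate samples. Those p-values measure the spread between tumors and not that between mice. In limma-voom the estimated correlation between tumors of a mouse was 0.762, so such tumors were not independent. Libraries held 1109487 to 16962329 counts. The fits were run on simulated counts of independent tumors, with no mouse effect and less variation than was estimated from these data. That simulation cannot show how the fits behave where tumors share a mouse. Positions come from GENCODE vM21 (GRCm38). Python 3.11.15 with scipy 1.17.1 was used for permutation tests, exact except for correlations over 12 mice (100000 permutations).

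Named genes were the 10 members, of each pathway list the most abundant gene and any past the threshold, the 3 genes nearest to each member by Pearson's r over 12 mice, genes overlapping a member or within 1 kb, and *Arid1a*. *Uimc1*, *Nbn*, *Clspn* and *Cdk1* were named after their values were seen. Of the neighbors, *1700065D16Rik* and *1300017J02Rik* did not pass the filter on low counts, and *Gm24004* and *Gm45819* were not analyzed here.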

Additional observations from a re-analysis of the deposited data

Results flagged for a closer look

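Each of the 10 genes and 5 ratios was examined in each group of 8 tumors for a value set apart from the others (Dixon's criterion, 0.526 for 8 values). On the log2 scale 0 values exceeded it in these 30 groups. The result depends on the scale. In CPM, *Trp53bp1* was at 209 in Medusa, with 110 in Grilka as the next KO value and 41.3 in Montana as the lowest. The measure also compares a value only with its nearest neighbor, so 2 tumors that lie apart together are not flagged.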

How the results depend on the processing

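No paired analysis was possible because no mouse contributed tumors to both groups. The count of the 10 genes past the threshold, 0, was 1 with DESeq2, RLE size factors or upper-quartile scaling, without Massa and Grilka, and with the proliferation score as a covariate (*Atrip* each time), 1 (*Mdc1*) without Massa, Grilka, Montana, Oregon and Prince together, a choice made after seeing the data, and 0 to 1 leaving out 1 tumor at a time. The count of the 50 pathway genes, 0 (4.01% of all genes were past the threshold), was 6 with DESeq2 (12.5% of all genes), 1 without Massa and Grilka (5.36%), 2 without Montana, Oregon and Prince (2.64%), 6 with the proliferation covariate (6.2%), 4 without all 5 of these tumors (2.7%), and 0 to 1 leaving out 1 tumor. Of all genes 0.11% were past it in limma-voom, 0.0625% per mouse, 0.0498% without N42 and 0.0454% with the ribosomal RNA covariate. In the other alternatives both counts were 0. The log2 fold change of *Atr* turned to 0.10 without Massa and Grilka, 0.50 with the ribosomal RNA covariate and 0.55 without all 5 tumors, that of *Wee1* to 0.17 without Montana, Oregon and Prince, and that of *Topbp1* to −0.19 in limma-voom. Leaving out 1 tumor gave −0.20 to 0.24 for *Topbp1* and −0.080 to 0.38 for *Rif1*, with negative values for *Topbp1* without Medusa, Ohio (−0.10) or Zelda (−0.026) and for *Rif1* without Medusa. The other 6 genes kept their direction in every alternative. RLE scaling moved the median of all genes from 0.10 to 0.13.

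The *Atrip* to *Atr* difference was no longer past the threshold without N25 (1.27, adjusted p = 0.0660 in the exact permutation test), without Massa and Grilka (0.88) or over mouse means (1.497), and ran from 1.03 to 1.69 leaving out 1 tumor. The *Chek1* to *Chek2* difference turned to 0.14 over mouse means and ran from −0.36 to 0.25, with 0.09 without Montana, 0.25 without Prince, 0.03 without Oregon and 0.05 without the left shoulder tumor of N42. The *Rif1* to *Trp53bp1* difference ran from −0.96 to −0.62 and was past the threshold without Montana (−0.93) or Zelda. Correlations with the proliferation score were planned over all 12 mice, where r was 0.834 for *Topbp1*, 0.766 for *Mdc1*, 0.742 for *Chek1*, 0.691 for *Atm*, 0.608 for *Rif1*, 0.490 for *Wee1*, 0.484 for *Chek2*, 0.461 for *Trp53bp1*, 0.338 for *Atr* and −0.037 for *Atrip*, the first 4 past the threshold after adjustment (permutation test). Within the 8 mice, a choice made after seeing the scores, *Atm* was no longer past it (0.696), *Chek2* was (0.876), and *Atrip* turned to 0.619. Without Massa and Grilka *Atr* (0.774), *Rif1* (0.697) and *Wee1* (0.794) were past it, and over tumors *Rif1* was (0.598). The causes were not tested. Depth limits the low genes most: *Chek1*, *Chek2*, *Atr* and *Atrip* rest on 16 counts or fewer in Massa and Grilka.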
